A study of Mus musculus with 35 samples.

Results

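The AP-1 transcription factors *Fos*, *Fosb*, *Fosl1*, *Fosl2*, *Jun*, *Junb*, *Jund* and *Atf3* were followed through 35 RNA-seq libraries of mouse pancreatic tumor cells. They were found by gene symbol and make up 8 of the 53465 genes that were counted. Each symbol had 1 gene identifier, and all 8 genes passed the filter on low counts in every comparison. The cells were KC-shSmad4 cells, pancreatic ductal adenocarcinoma (PDAC) cells that carry *Ptf1a*-Cre, rtTA3 linked to the fluorescent protein mKate2, and an shRNA against *Smad4* at the *Col1a1* locus that doxycycline (Dox) induces. They also carry luciferase. Cre driven by *Ptf1a* acts in the pancreatic lineage. The hosts were female athymic *Foxn1* nu mice of 6 to 8 weeks, which lack mature T cells, and they were fed Dox while tumors formed.

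Cells were placed in the pancreas for primary tumors, in the spleen for liver metastases or in the tail vein for lung metastases. Dox was either kept, which gives the label Smad4 off, or withdrawn after 4 (pancreas), 5 (liver) or 6 (lung) weeks, which gives the label Smad4 on, and tumors were collected on day 7 or 14 after withdrawal. Per the study's methods, tumors were digested with collagenase V, Dispase II and DNase I and then with trypsin, and living mKate2+ cells were sorted into TRIzol LS. No unsorted library was analysed here, so the levels below are those of dissociated and sorted cells. Day 7 had 3 pancreas, 2 liver and 4 lung libraries labelled Smad4 off, and 2, 3 and 2 labelled on. Day 14 had 2 pancreas, 3 liver and 4 lung libraries labelled off, and 3, 3 and 4 labelled on. A library is numbered by its mouse.

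AP-1 is a family of dimers of basic leucine zipper proteins. FOS proteins do not pair with one another but join a JUN protein, while JUN proteins can also pair among themselves and with ATF proteins. *Fos*, *Fosb*, *Jun*, *Junb* and *Atf3* are immediate early or stress-induced genes whose transcripts rise within minutes of growth factor, mitogen-activated protein kinase (MAPK) or stress signals and decay quickly. Enzymatic digestion at body temperature and cell sorting are known to induce this same group of genes. In epithelial tumors, FOSL1 is known as a target of growth factor signaling.

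Totals ran from 11885461 to 43571007 counts a library (median 19415320), and 3 counts correspond to a CPM (the count scaled to its library's total times its TMM factor) of 0.0684 to 0.239. *Smad4* mRNA went against the labels. The 18 libraries with the label Smad4 off held 69.9 to 143 CPM of it (median 103), and the 17 with the label Smad4 on held 14.8 to 22.4 CPM (median 17.7). Groups are therefore called by their labels. A positive difference means a higher level under the label Smad4 on, where *Smad4* mRNA itself was the lower. In bulk libraries, fewer cells of a type and less RNA per cell cannot be told apart.

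Some libraries stood apart. In 10 of the 35 libraries, all from liver and lung, reads were counted on the mitochondrial gene *mt-Co3*, and in the other 25 none were. Replicate 2 of the liver group labelled Smad4 off on day 7, the only one labelled as paired-end, lay outside the range of the other 10 liver libraries on all 7 lists of cell type markers. Its 7 fibroblast markers summed to 35782 CPM against 255 to 4307 CPM in the others. Its 6 acinar markers summed to 337 CPM against 4.88 to 16.9 CPM, its 6 hepatocyte markers to 1.32 CPM against 16.8 to 142 CPM, and its 7 epithelial markers to 4025 CPM against 12384 to 16633 CPM. These levels go against its label as a liver library. The epithelial sum lay within the range of the pancreas libraries (2751 to 8020 CPM), the hepatocyte sum just below it, the fibroblast sum above it (8783 to 24253 CPM) and the acinar sum below it (681 to 3057 CPM). The organ of this library could not be settled from the labels, and values of the liver and of its day 7 group labelled off depend on it. The main results that rest on this library are given with and without it.

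All 8 AP-1 genes were transcribed in every library, and most of them at very high levels. Together they took 0.593% to 1.63% of all counts of a library (median 1.00%). To compare genes with each other, counts were scaled by edgeR's TMM factors and by transcript length, as CPM per kb. On this scale the median level over the 35 libraries was 1175 for *Fos*, 816 for *Junb* and 776 for *Atf3*. *Jun* followed at 288, *Fosb* at 279 and *Jund* at 175, and *Fosl1* at 43.3 and *Fosl2* at 26.2 were the lowest. *Fos* ranked between 7 and 67 among 17547 genes by this level, and was within the first 100 genes in all 35 libraries, as *Junb* was in 34 and *Atf3* in 30. *Jund* was above *Fosl1* in 35 of 35 libraries and *Atf3* above *Jun* in 30, whereas *Jun* was above *Fosb* in only 18 of 35, so that these 2 did not differ beyond their spread. The other neighbours kept the order of their medians in 22 to 27 libraries.

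**Figure D1:**
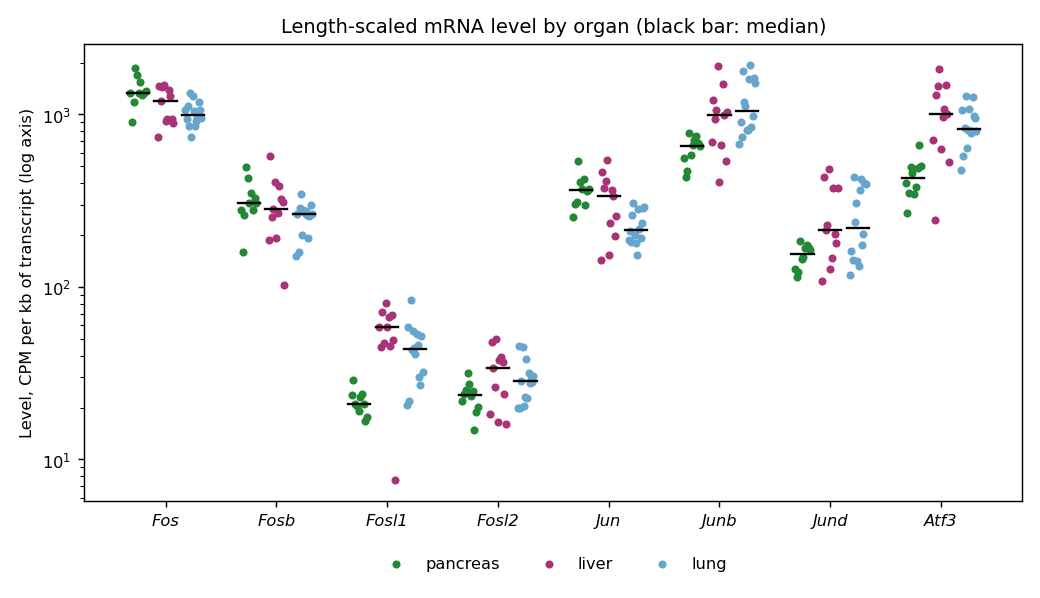
Length-scaled mRNA level (CPM per kb of transcript, log axis) of each AP-1 gene, with 1 point per library in 10 pancreas, 11 liver and 14 lung libraries and a black bar at the organ's median. *Fos*, *Junb* and *Atf3* are highest in this scale, with medians over all libraries of 1175, 816 and 776, and *Fosl1* and *Fosl2* lowest, at 43.3 and 26.2.

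The positions below are those of the deposited annotation on GRCm38. *Fos* (ENSMUSG00000021250), the founding FOS protein, lies on chromosome 12 from 85473890 to 85477273 on the plus strand. *Fosb* (ENSMUSG00000003545), a second inducible FOS protein, lies on chromosome 7 from 19302696 to 19310051 on the minus strand. *Fosl1* (ENSMUSG00000024912), which encodes FRA1, lies on chromosome 19 from 5447703 to 5455945 on the plus strand, and *Fosl2* (ENSMUSG00000029135), which encodes FRA2, on chromosome 5 from 32135801 to 32157842 on the plus strand. *Jun* (ENSMUSG00000052684) lies on chromosome 4 from 95049034 to 95052222 on the minus strand. *Junb* (ENSMUSG00000052837) and *Jund* (ENSMUSG00000071076) are both on chromosome 8, from 84974484 to 84978718 on the minus strand and from 70698949 to 70700616 on the plus strand. *Atf3* (ENSMUSG00000026628), a stress-induced ATF protein that pairs with JUN proteins, lies on chromosome 1 from 191170296 to 191218039 on the minus strand.

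Promoter sequences are shown for the 5 members known as immediate early or stress-induced genes, whose levels in sorted cells are the subject here, and cover the 250 bases before the RefSeq transcription start on GRCm38.p6, written 5′ to 3′ on the gene's strand. RefSeq promoters were at hand for 7 of the 8 members, all but *Fosl1*. Not every RefSeq start lies at the edge of the gene's span given above. Those of *Atf3*, *Fosb* and *Fosl2* lie inside the span, and those of *Junb* and *Jund* lie outside it. The windows not shown were chr5:32136222-32136471 for *Fosl2* and chr8:70697489-70697738 for *Jund*, both on the plus strand. Capitals mark 3 motifs, namely TGACG or its reverse complement CGTCA, which is the core of the cyclic AMP response element (CRE), TGACATCA or TGATGTCA, the AP-1 element of *Jun*, and TATAAA on the gene's own strand.

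Fos promoter, chr12:85473640-85473889, plus strand: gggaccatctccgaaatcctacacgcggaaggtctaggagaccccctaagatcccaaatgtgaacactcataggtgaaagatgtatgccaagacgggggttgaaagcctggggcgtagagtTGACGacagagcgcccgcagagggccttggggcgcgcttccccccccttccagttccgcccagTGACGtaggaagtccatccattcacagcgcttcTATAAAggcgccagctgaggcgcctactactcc
Fosb promoter, chr7:19310046-19310295, minus strand: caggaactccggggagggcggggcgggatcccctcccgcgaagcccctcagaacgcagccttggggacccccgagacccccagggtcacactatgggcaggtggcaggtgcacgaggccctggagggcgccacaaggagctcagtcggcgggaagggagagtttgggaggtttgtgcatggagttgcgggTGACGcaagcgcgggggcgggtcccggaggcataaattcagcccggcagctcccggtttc
Junb promoter, chr8:84978749-84978998, minus strand: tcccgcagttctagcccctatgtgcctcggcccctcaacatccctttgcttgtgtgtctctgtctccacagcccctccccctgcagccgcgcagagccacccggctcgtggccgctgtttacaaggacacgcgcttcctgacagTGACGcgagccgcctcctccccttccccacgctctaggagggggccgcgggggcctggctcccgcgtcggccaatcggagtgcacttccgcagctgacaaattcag
Atf3 promoter, chr1:191183334-191183583, minus strand: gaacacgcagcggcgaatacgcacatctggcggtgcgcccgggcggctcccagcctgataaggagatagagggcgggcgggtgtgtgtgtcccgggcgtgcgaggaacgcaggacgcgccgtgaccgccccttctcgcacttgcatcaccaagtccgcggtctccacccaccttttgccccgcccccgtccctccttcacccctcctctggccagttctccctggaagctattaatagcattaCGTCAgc
Jun promoter, chr4:95052223-95052472, minus strand: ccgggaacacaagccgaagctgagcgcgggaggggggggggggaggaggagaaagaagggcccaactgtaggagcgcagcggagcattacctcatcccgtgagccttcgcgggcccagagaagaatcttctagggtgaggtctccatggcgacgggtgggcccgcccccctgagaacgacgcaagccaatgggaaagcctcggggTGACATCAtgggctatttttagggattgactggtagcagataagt

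The CRE core was found in 4 of the 7 promoters, those of *Fos*, *Fosb*, *Junb* and *Atf3*, and in 17.8% of all 32851 RefSeq promoters of this length. Counting from -1 at the last base before the start, it stood from -66 to -62 and from -129 to -125 in *Fos*, from -60 to -56 in *Fosb*, from -106 to -102 in *Junb* and from -7 to -3 in *Atf3*. *Jun* held TGACATCA from -45 to -38, a motif present in 2.93% of all promoters, and *Fos* held TATAAA from -33 to -28, present in 7.59%. The full CRE (TGACGTCA, which contains the core; 1.55% of all promoters), the consensus AP-1 site (TGACTCA or TGAGTCA; 4.46%), the CArG box (1.47%) and the SMAD element (CAGAC or GTCTG; 42.2%) were in 0 of the 7 windows, searched on both strands. A match is a description of the letters and not of a bound site.

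Group means (CPM ± SD, labelled Smad4 off and then on, with the numbers of libraries given above) describe each member over the 12 groups. *Fos* means were 2669 ± 496 and 4165 ± 276 on day 7 and 3393 ± 349 and 3132 ± 70.4 on day 14 in pancreas, 2593 ± 1205 and 3211 ± 361 on day 7 and 2544 ± 619.6 and 2437 ± 498 on day 14 in liver, and 2344 ± 278 and 2439 ± 973 on day 7 and 2414 ± 439 and 2440 ± 259 on day 14 in lung. The highest mean was that of pancreas day 7 on and the lowest that of lung day 7 off. *Fosb* means were 1460 ± 405 and 2882 ± 290.2 on day 7 and 2047 ± 187 and 1911 ± 152 on day 14 in pancreas, 2375 ± 1706 and 1962 ± 502 on day 7 and 1761 ± 608 and 1541 ± 779 on day 14 in liver, and 1349 ± 438 and 1711 ± 641 on day 7 and 1688 ± 54.0 and 1582 ± 282 on day 14 in lung. These means were highest in pancreas day 7 on and lowest in lung day 7 off. *Fosl1* means were 41.9 ± 6.99 and 33.8 ± 1.49 on day 7 and 39.9 ± 1.18 and 31.5 ± 3.81 on day 14 in pancreas, 88.3 ± 16.6 and 114 ± 29.2 on day 7 and 96.8 ± 18.4 and 71.2 ± 53.0 on day 14 in liver, and 78.6 ± 52.2 and 84.3 ± 14.7 on day 7 and 78.9 ± 9.26 and 60.4 ± 19.4 on day 14 in lung. The highest mean was that of liver day 7 on and the lowest that of pancreas day 14 on. *Fosl2* means were 229 ± 17.9 and 286 ± 30.4 on day 7 and 234 ± 11.9 and 174 ± 27.2 on day 14 in pancreas, 322 ± 205 and 354 ± 116 on day 7 and 303 ± 124 and 247 ± 100.2 on day 14 in liver, and 275 ± 117 and 316 ± 167 on day 7 and 280.0 ± 72.1 and 281 ± 11.7 on day 14 in lung. These means were highest in liver day 7 on and lowest in pancreas day 14 on.

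*Jun* means were 922 ± 99.9 and 1505 ± 292 on day 7 and 1260 ± 113 and 1092 ± 124 on day 14 in pancreas, 972 ± 729.6 and 1415 ± 290.5 on day 7 and 804 ± 342 and 839 ± 222 on day 14 in liver, and 671 ± 116 and 806 ± 241 on day 7 and 664 ± 180.1 and 804 ± 151 on day 14 in lung. The highest mean was that of pancreas day 7 on and the lowest that of lung day 14 off. *Junb* means were 1123 ± 149 and 1559 ± 320.2 on day 7 and 1576 ± 77.3 and 1601 ± 110.2 on day 14 in pancreas, 2184 ± 840.2 and 2992 ± 1199 on day 7 and 1979 ± 1321 and 1964 ± 636 on day 14 in liver, and 2369 ± 1197 and 2660 ± 103 on day 7 and 2979 ± 1316 and 2861 ± 885 on day 14 in lung. These means were highest in liver day 7 on and lowest in pancreas day 7 off. *Jund* means were 202 ± 11.3 and 275 ± 48.9 on day 7 and 264 ± 23.0 and 282 ± 9.37 on day 14 in pancreas, 453 ± 387 and 513 ± 250.2 on day 7 and 360.0 ± 229 and 419.6 ± 177 on day 14 in liver, and 358 ± 246 and 452 ± 79.7 on day 7 and 442 ± 249 and 489 ± 202 on day 14 in lung. The highest mean was that of liver day 7 on and the lowest that of pancreas day 7 off. *Atf3* means were 730.0 ± 143 and 1027 ± 50.9 on day 7 and 781 ± 46.6 and 1189 ± 209 on day 14 in pancreas, 1032 ± 717 and 3297 ± 594 on day 7 and 1919 ± 504 and 2158 ± 1018 on day 14 in liver, and 1592 ± 576 and 2070 ± 984 on day 7 and 1868 ± 302 and 2152 ± 406 on day 14 in lung. These means were highest in liver day 7 on and lowest in pancreas day 7 off.

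Of all comparisons fitted with edgeR, members were called only in those of liver and lung with pancreas. Of the 8 members, *Fosl1* and *Atf3* were called higher in liver than in pancreas and in lung than in pancreas, where a called gene has both more than a 2-fold difference and, in edgeR's quasi-likelihood test of all genes, a Benjamini-Hochberg adjusted p below 0.05. *Fosl1* was measured at 28.5 to 49.6 CPM in the 10 pancreas libraries (median 35.9), at 12.9 to 138 CPM in the 11 liver libraries (median 99.8) and at 35.3 to 143 CPM in the 14 lung libraries (median 74.5). It lay above all pancreas libraries in 10 of the 11 liver and 11 of the 14 lung libraries, and the exception in liver, replicate 3 labelled Smad4 on at day 14, was below all of them. The log2 fold change of *Fosl1* was 1.32 ± 0.27 (SE) in liver against pancreas (adjusted p = 2.4e-04, edgeR) and 1.04 ± 0.26 in lung against pancreas (adjusted p = 0.0018).

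*Atf3* was at 576 to 1430 CPM in pancreas (median 925), at 525 to 3949 CPM in liver (median 2153) and at 1030 to 2766 CPM in lung (median 1785). It exceeded every pancreas library in 8 of 11 liver and 11 of 14 lung libraries, and the 1 liver library below the pancreas range was replicate 2 labelled Smad4 off at day 7, the library with high fibroblast markers. Its log2 fold change was 1.08 ± 0.20 in liver (adjusted p = 6.8e-05, edgeR) and 1.06 ± 0.19 in lung (adjusted p = 5.9e-05). Without that library, the differences in liver were 1.37 ± 0.28 for *Fosl1* and 1.23 ± 0.18 for *Atf3*, both called. As background, 20.9% of the 17547 genes tested were called between liver and pancreas and 21.8% between lung and pancreas, so that 2 of 8 members in each was near the share of all genes. Single libraries decided some of these calls. *Atf3* in liver fell short of 2-fold without replicate 1 labelled Smad4 off on day 7 (0.81 ± 0.18) or replicate 1 labelled on at day 14 (0.99 ± 0.19). In lung, *Atf3* fell short without replicate 2 labelled off (0.98 ± 0.20) or replicate 2 labelled on (1.00 ± 0.22) of the pancreas on day 7 or without replicate 1 labelled on of the lung on day 7 (0.87 ± 0.20). *Fosl1* in lung fell short without any of 5 libraries, at 0.89 to 0.99, namely pancreas day 7 on 2, lung day 7 off 4, lung day 7 on 2, lung day 14 off 3 and lung day 14 on 3. All these values kept an adjusted p of 0.011 or less.

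Among the other members, the mRNAs of the JUN genes went in different directions. *Junb* and *Jund*, which oppose JUN in some promoters, were at a median of 2274 and 357 CPM in liver, 2424 and 367 CPM in lung and 1513 and 261 CPM in pancreas. With no fold threshold, 4 members had an adjusted p under 0.05 in liver and 6 in lung, beside 46.4% and 48.2% of all genes. The differences of *Junb* and *Jund* reached that p but not 2-fold, with log2 values of 0.63 ± 0.23 and 0.77 ± 0.29 in liver (adjusted p = 0.028 and 0.034, edgeR) and 0.90 ± 0.23 and 0.77 ± 0.28 in lung (adjusted p = 0.0020 and 0.028). *Jun* itself was at 809 to 1711 CPM in pancreas (median 1164) and at 485 to 976 CPM in lung (median 682), and 9 of 14 lung libraries were below all pancreas libraries. Its log2 difference was -0.68 ± 0.17 in lung (adjusted p = 0.0017, edgeR) and that of *Fos* -0.45 ± 0.12 (adjusted p = 0.0037). *Fos* had medians of 3135 CPM in pancreas, 2798 CPM in liver and 2350 CPM in lung, and its difference in liver, -0.30 ± 0.13, had an unadjusted p of 0.028 (adjusted p = 0.058, edgeR). *Fosl2* was 0.42 ± 0.20 higher in liver on the log2 scale at an unadjusted p of 0.048 (adjusted p = 0.091). *Fosb* and, in liver, *Jun* and, in lung, *Fosl2* had unadjusted p-values of 0.05 or more. Without the liver library with high fibroblast markers, *Jun* was -0.53 ± 0.16 in liver against pancreas (adjusted p = 0.0083, edgeR), and *Junb* and *Jund* were at 0.52 ± 0.24 and 0.44 ± 0.29 (adjusted p = 0.087 and 0.23).

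**Figure D2:**
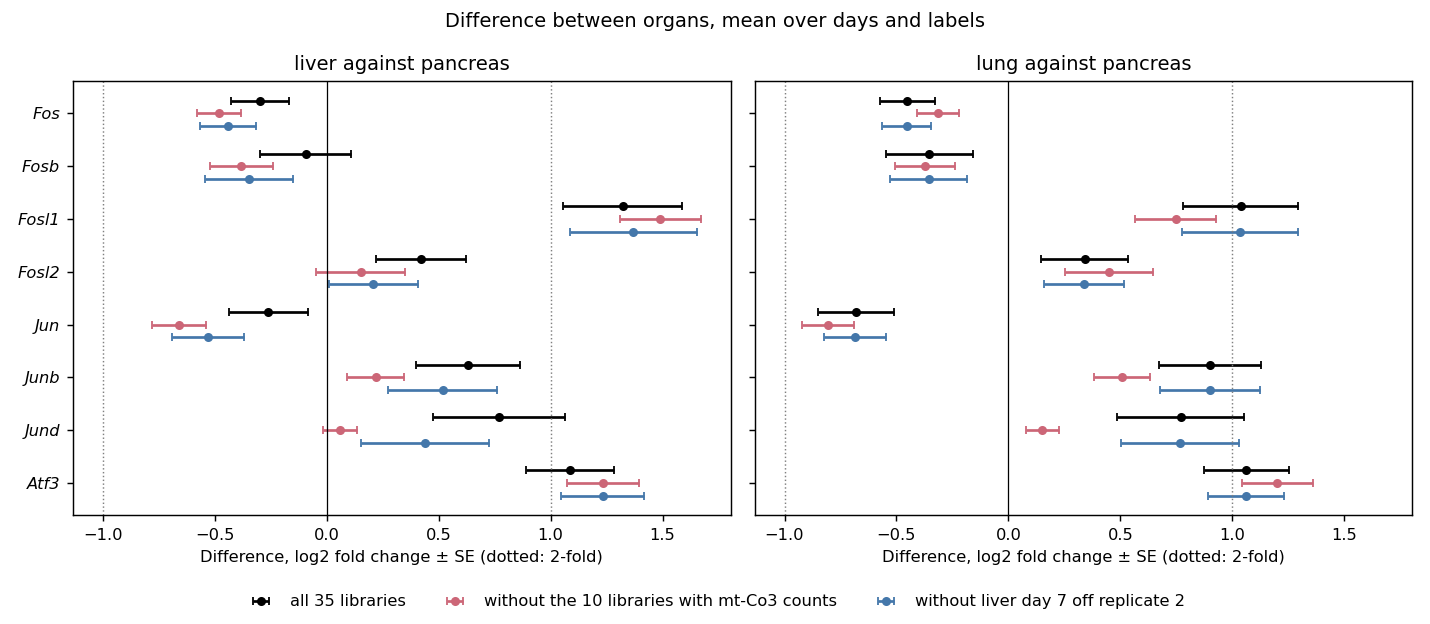
Difference of each AP-1 gene between organs (log2 fold change ± SE, mean over days and labels; dotted lines at 2-fold) with all 35 libraries, without the 10 libraries with *mt-Co3* counts and without liver day 7 off replicate 2. *Atf3* stays past 2-fold in all settings shown, from 1.06 to 1.23, *Jund* drops from 0.77 to 0.06 in liver and 0.15 in lung without the *mt-Co3* libraries, and *Fosl1* in lung drops from 1.04 to 0.75.

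*Jund* and *Junb* were at higher levels in the libraries with *mt-Co3* counts. In liver, *Jund* was at 623 to 802 CPM in the 4 libraries with such counts and at 180 to 381 CPM in the 7 without. In lung it was at 508 to 725 CPM in 6 libraries and at 197 to 396 CPM in 8. The 2 sets did not overlap in either organ. Within a group of the same organ, day and label, *Jund* was higher in the libraries with *mt-Co3* counts in 8 of 8 groups (mean log2 difference 1.27) and *Junb* in 7 of 8 (0.85), whereas *Fos* was higher in 3 and lower in 4 (mean -0.02). Without these libraries, *Jund* differed from pancreas by 0.06 ± 0.08 in liver (adjusted p = 0.53, edgeR) and 0.15 ± 0.07 in lung (adjusted p = 0.099), and *Junb* by 0.22 ± 0.13 in liver (adjusted p = 0.16) and 0.51 ± 0.12 in lung (adjusted p = 0.0023). In the same fit *Jun* was lower than pancreas in both organs, by log2 values of -0.66 ± 0.12 in liver (adjusted p = 1.5e-04) and -0.81 ± 0.12 in lung (adjusted p = 2.0e-05). *Fosl1* was 0.75 ± 0.18 higher in lung, under 2-fold (adjusted p = 0.0024), and 1.49 ± 0.18 higher in liver. *Atf3* was called higher in both, by 1.23 ± 0.16 in liver. Between liver and lung, *Fosl1* was 0.74 ± 0.20 higher in liver in these libraries (adjusted p = 0.0086), under 2-fold. The fit without the *mt-Co3* libraries left 1 library in liver day 7 off and 1 in lung day 7 on. What sets the *mt-Co3* libraries apart was not tested. The share of all genes that separate by *mt-Co3* status was not computed. The higher levels of *Jund* and *Junb* in these libraries are therefore not shown to be particular to these 2 genes.

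Markers of other cells differed between organs as well. All 7 fibroblast markers were called lower in both metastatic organs, and their sum was 8783 to 24253 CPM in pancreas, 255 to 35782 CPM in liver (median 930) and 159 to 1988 CPM in lung. The 6 acinar markers summed to 681 to 3057 CPM in pancreas against medians of 10.4 and 7.12 CPM in liver and lung, where *Cpa1* was at 0 in 7 of 11 and 12 of 14 libraries. Lung epithelial markers summed to 125 to 745 CPM in lung, with *Sftpc* and *Sftpa1* at 0 in all 10 pancreas libraries, and hepatocyte markers to 1.32 to 142 CPM in liver. Epithelial keratins and other tumor markers were present in every library but lower in pancreas (sum 2751 to 8020 CPM, against medians of 14809 and 9222 CPM in liver and lung). Their part in the organ differences was not tested.

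Liver and lung metastases were also compared with each other. Of the 8 members, 0 were called by edgeR and 0 by DESeq2, beside 8.57% of all genes. *Jun* was 0.42 ± 0.16 higher in liver on the log2 scale at an unadjusted p of 0.016 (adjusted p = 0.071, edgeR), and 0.15 ± 0.15 without the liver library with high fibroblast markers (adjusted p = 0.50). The other 7 members lay between -0.27 and 0.28.

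**Figure D3:**
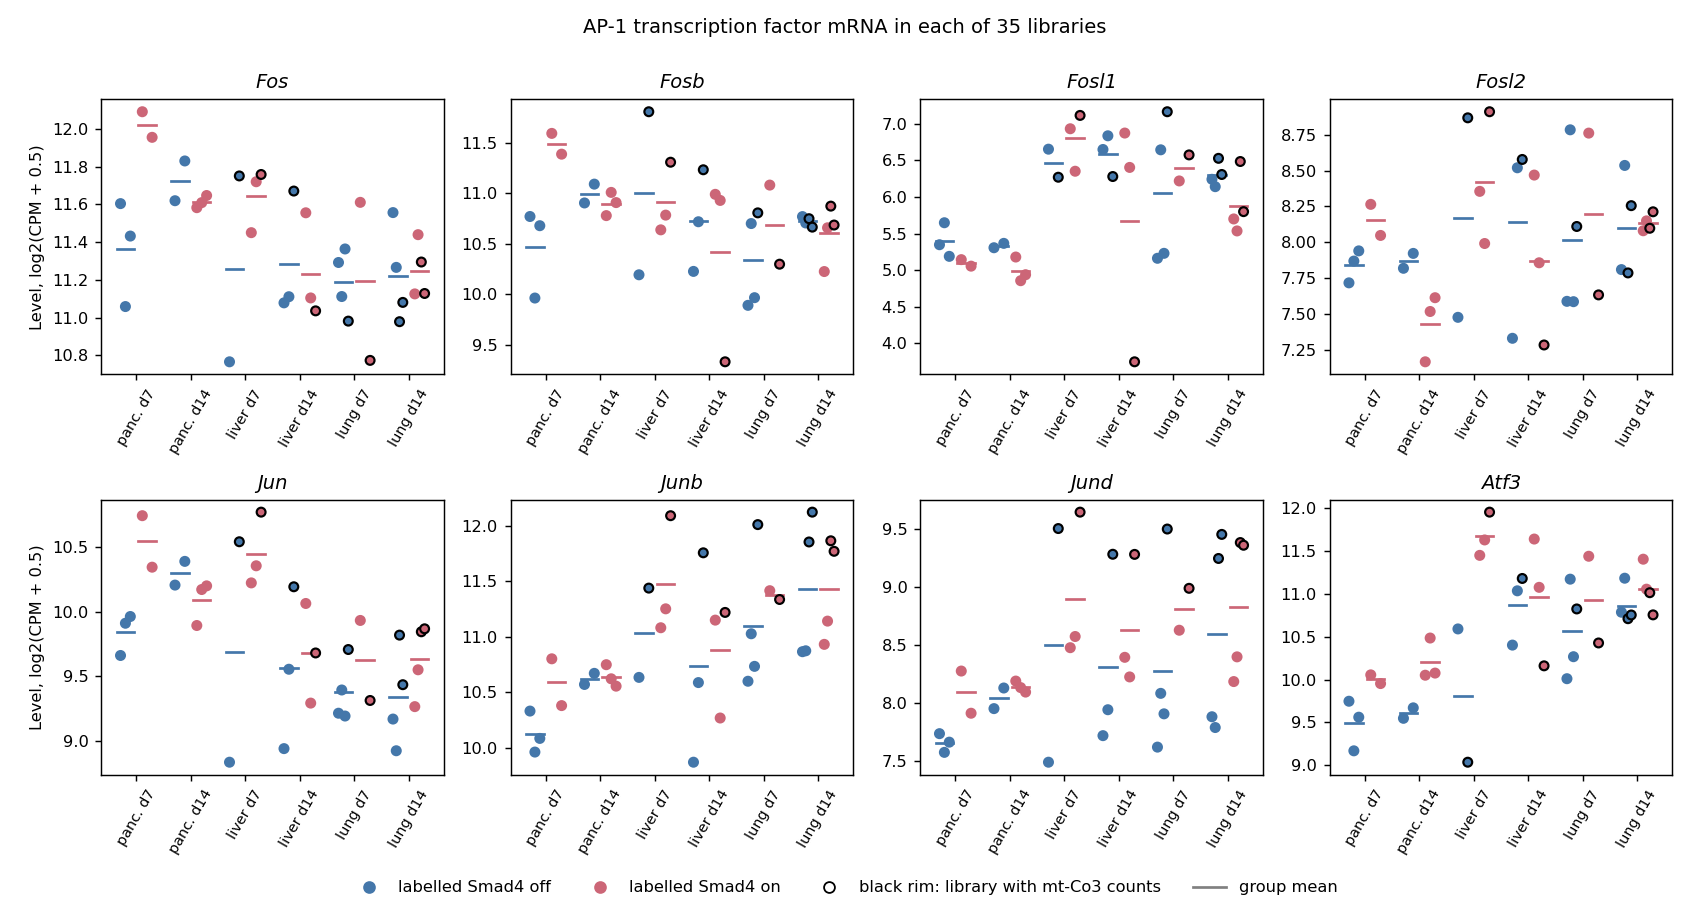
mRNA level (log2(CPM + 0.5)) of the 8 AP-1 genes in each of the 35 libraries, by organ and day, blue for the label Smad4 off and red for Smad4 on, with group means as bars and a black rim for libraries with *mt-Co3* counts. Both libraries labelled Smad4 on at day 7 in pancreas lie above those labelled off for all members but *Fosl1*, and rimmed points are highest for *Jund* in each liver and lung group.

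Between the labels, members went mostly the same way in primary tumors on day 7. There 7 of the 8 members were higher in both libraries labelled Smad4 on than in all 3 labelled Smad4 off, and *Fosl1* was lower in both. Of all 14439 genes tested, 21% lay above without overlap and 22.3% below. By edgeR 0 members were called, beside 1.33% of all genes. *Fos* was at 3112, 2133 and 2763 CPM in replicates 1 to 3 labelled off and at 4360 and 3969 CPM in replicates 1 and 2 labelled on. *Fosb* was at 1745, 997 and 1638 CPM and at 3087 and 2677 CPM, respectively. *Jun* was at 809, 962 and 997 CPM and at 1711 and 1299 CPM. For each of these 3 genes the lowest library labelled on lay above the highest labelled off.

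The log2 fold changes were 0.65 ± 0.19 for *Fos*, 0.99 ± 0.25 for *Fosb*, 0.72 ± 0.17 for *Jun*, 0.48 ± 0.18 for *Junb*, 0.46 ± 0.14 for *Jund*, 0.50 ± 0.19 for *Atf3* and 0.33 ± 0.12 for *Fosl2*. Their unadjusted p-values were 0.0038 to 0.036 and their adjusted p-values 0.075 (*Jun*) to 0.18 (*Junb*) in edgeR. An unadjusted p under 0.05 was reached by 23.1% of all genes tested here and by 7 of 8 members. *Fosl1* was at -0.30 ± 0.15 (adjusted p = 0.30). DESeq2 also called 0 members.

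Other immediate early genes stood at higher levels in the same 2 libraries. Of 23 such genes, 20 had a positive log2 fold change (median 0.57 against 0.01 over all genes), 16 had an unadjusted p under 0.05 and 1 was called (0 of the list in every other label comparison within an organ and day), *Zfp36*, whose protein destabilizes AU-rich mRNAs, at 1.08 ± 0.16 (adjusted p = 0.033, edgeR). *Egr2*, an early growth response factor, was at 0.87 ± 0.11 (adjusted p = 0.028), under 2-fold. The mean log2 CPM of the list, called the immediate early score here, was 7.19 to 7.40 in the libraries labelled off and 7.81 to 7.91 in those labelled on. Of 13 heat shock genes, 3 had a positive value, 6 had an unadjusted p under 0.05 and 0 were called (median -0.27). Among those 6, *Hsph1* was lower at -0.98 ± 0.13 (adjusted p = 0.029, edgeR), under 2-fold, and *Hspb1* was higher at 0.61 ± 0.17 (adjusted p = 0.10). Fibroblast markers summed to 11805 to 16852 CPM in the libraries labelled off and 23295 to 24253 CPM in those labelled on, and acinar markers to 1875 to 2992 CPM and 681 to 922 CPM. With the immediate early score as a covariate, which does not overlap between the labels in this comparison, 7 members changed sign, 6 of them to log2 values of -0.05 to -0.44 and *Fosl1* the other way, to 0.59 ± 0.55. The parts of the score and of the other cells in the result were not tested.

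On day 14 in the pancreas, 4 members did not overlap between the labels, *Atf3* higher and *Fosl1*, *Fosl2* and *Jun* lower under the label Smad4 on, where 21.9% of all genes tested lay above without overlap and 25.2% below. *Atf3* was at 748 and 814 CPM in replicates 1 and 2 labelled Smad4 off and at 1060, 1430 and 1078 CPM in replicates 1 to 3 labelled on, without overlap. Its log2 fold change was 0.63 ± 0.15 (adjusted p = 0.031, edgeR), under 2-fold, and the adjusted p was 0.059 to 0.23 without replicate 1 or 2 labelled off or replicate 2 or 3 labelled on (log2 0.46 to 0.70). *Fosl2* was at 225 and 242 CPM and at 143, 183 and 195 CPM, with a log2 fold change of -0.41 ± 0.14 (unadjusted p = 0.020, adjusted p = 0.10, edgeR). *Fosl1* was at 39.1 and 40.7 CPM and at 28.5 to 35.7 CPM, with -0.32 ± 0.11 (unadjusted p = 0.023, adjusted p = 0.11, edgeR). *Jun* was lower in all 3 libraries labelled on (950 to 1175 CPM against 1180 and 1340 CPM), and *Fos*, *Fosb*, *Junb* and *Jund* overlapped between the labels. Members called numbered 0 by edgeR and by DESeq2, with 3 at an unadjusted p under 0.05, beside 4.64% of 14234 genes, and 1 member (*Atf3*) had an adjusted p under 0.05, beside 12.9% of all genes, and the immediate early score was 7.64 to 7.73 in the libraries labelled off and 7.35 to 7.59 in those labelled on. The heat shock score was 8.30 to 8.45 and 7.82 to 7.95. Epithelial markers summed to 4502 to 4878 CPM under the label off and 5635 to 8020 CPM under the label on, leukocyte markers to 154 to 235 and 260 to 277 CPM, hepatocyte markers to 1.40 to 2.17 and 5.97 to 10.3 CPM, and lung epithelial markers to 18.9 to 20.3 and 29.9 to 63.9 CPM. Of the 7 leukocyte markers, 5 had a positive log2 fold change, with a median of 0.0078 beside 0.016 over all genes. Only 1 of the 6 hepatocyte and 1 of the 5 lung epithelial markers passed the filter on low counts here. Totals were 28557488 and 32195795 counts under the label off and 12200163 to 14255679 counts under the label on, without overlap. The parts of depth, scores and markers were not tested.

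In the liver on day 7, *Atf3* was measured at 1539 and 525 CPM in the 2 libraries labelled Smad4 off and at 2787, 3156 and 3949 CPM in the 3 labelled on. The groups did not overlap, as was so for 27.1% of all genes in this direction, and its log2 fold change was 1.58 ± 0.54 (unadjusted p = 0.031, adjusted p = 0.14, edgeR). It was not called by edgeR, but was by DESeq2 (1.59 ± 0.54, adjusted p = 0.019). *Jun* was at 456 and 1488 CPM in the libraries labelled off and at 1194, 1308 and 1744 CPM in those labelled on, and its value in replicate 2 labelled off lay inside the range of the label on. Without that replicate, which is the library with high fibroblast markers, *Atf3* was at 0.99 ± 0.33 (adjusted p = 0.15, edgeR) and *Jun* at 1.52 ± 0.33 (adjusted p = 0.068), with 1 library left under the label off, which was assumed to vary like the others. Without replicate 1 labelled off instead, *Atf3* was called at 2.63 ± 0.41 (adjusted p = 0.015). In the 3 libraries of this stratum without *mt-Co3* counts, 1 labelled off and 2 labelled on, the spread came from the label on alone. There *Jun* was at 1.36 ± 0.18, *Jund* was at 0.95 ± 0.18 and *Atf3* at 0.86 ± 0.18, and *Fosl1* at -0.07 ± 0.20. Other markers also moved with the labels in this stratum. Epithelial markers summed to 4025 and 12384 CPM under the label off and 15287 to 16633 CPM under the label on, leukocyte markers to 63.1 and 139 against 267 to 281 CPM, hepatocyte markers to 1.32 and 16.8 against 56.6 to 142 CPM, and lung epithelial markers to 9.003 and 34.4 against 149 to 323 CPM. Of the 5 lung epithelial markers, 1 passed the filter on low counts in this stratum. In liver libraries *Sftpd* had a median of 148 CPM, whereas *Sftpc* was at 0 in 6 of 11 and *Sftpa1* in 9 of 11. The part of all these markers in the result was not tested. The immediate early score was 7.34 and 8.20 in the libraries labelled off and 7.68 to 7.90 in those labelled on. edgeR called 0 of 8 members, 1 of them with an unadjusted p under 0.05, beside 0.444% of 16007 genes.

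In the other organ-day strata no member was called by edgeR or DESeq2 and none had an unadjusted p under 0.05. In lung on day 7, members' log2 fold changes were 0.07 to 0.38 with standard errors of 0.29 to 0.62, and 0% of 15193 genes were called. In liver on day 14 they were -0.49 to 0.20 with standard errors of 0.27 to 0.67, beside 0% of 14947 genes. In lung on day 14 they were -0.39 to 0.27 with standard errors of 0.17 to 0.47, beside 0.0271% of 14751 genes. The largest standard error was 0.47 to 0.68 in the liver and lung strata and 0.25 and 0.15 in the pancreas strata.

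**Figure D4:**
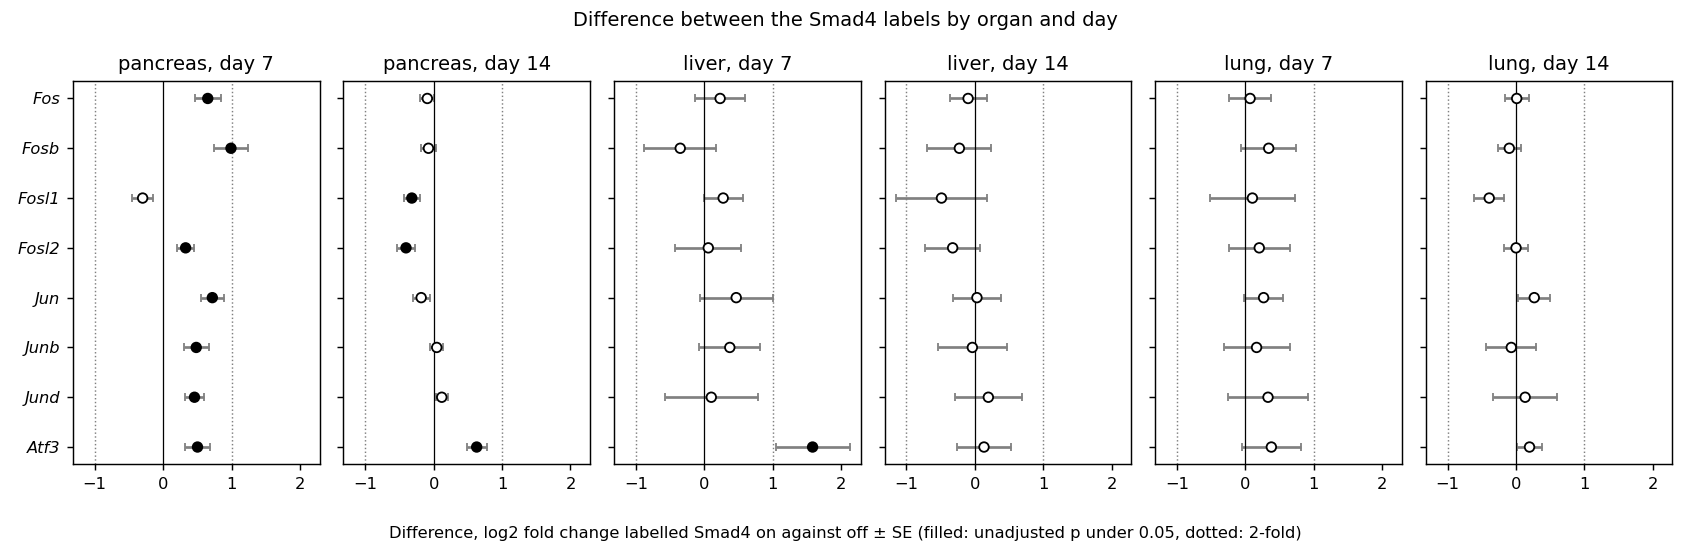
Difference of each AP-1 gene between the labels (log2 fold change of labelled Smad4 on against off ± SE, edgeR) in the 6 organ-day strata, with filled points for an unadjusted p under 0.05 and dotted lines at 2-fold. Filled points number 7 in pancreas on day 7, 3 in pancreas on day 14 and 1 in liver on day 7, and *Atf3* is positive in all 6 panels, from 0.13 to 1.58.

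Across the 6 strata, *Atf3* and *Jund* had positive label differences in 6 of 6 and *Jun* in 5 of 6, while *Fosl1* and *Fosb* were negative in 4 of 6. In the mean of the 6 strata, fitted over all 35 libraries, *Atf3* was at 0.59 ± 0.15 (adjusted p = 0.0056, edgeR), under 2-fold, and the other 7 members lay between -0.17 and 0.27 with unadjusted p-values of 0.05 or more. Members called numbered 0 of 8, beside 6% of 17547 genes, also with DESeq2, and 1 had an adjusted p under 0.05, beside 24.6%. Without the liver library with high fibroblast markers, *Atf3* was at 0.49 ± 0.14 (adjusted p = 0.017) and *Jun* at 0.45 ± 0.12 (adjusted p = 0.0092), both under 2-fold. In the 25 libraries without *mt-Co3* counts, 7 of the 8 members were positive and 6 had an adjusted p under 0.05, beside 30.8% of all genes in that fit, all under 2-fold, namely *Atf3* (0.62 ± 0.14), *Jun* (0.56 ± 0.10), *Jund* (0.53 ± 0.06), *Fosb* (0.39 ± 0.11), *Junb* (0.37 ± 0.11) and *Fos* (0.29 ± 0.08), with adjusted p-values of 1.2e-05 (*Jund*) to 0.014 (*Fosb*) in edgeR. With the mouse number as a replicate block, in the libraries whose number occurs under both labels, *Atf3* was at 0.57 ± 0.21 (adjusted p = 0.076, edgeR).

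The study contrasts liver and lung in their response to the labels, and this difference was tested as an interaction. On day 7 the members' differences of response, liver minus lung, ran from -0.62 to 1.25 on the log2 scale (the highest for *Atf3*, 1.25 ± 0.74, adjusted p = 0.38, edgeR), and 0 of 8 were called, beside 1.86% of 16369 genes. Without the liver library with high fibroblast markers, *Atf3* was at 0.65 ± 0.67 (adjusted p = 0.66) and *Jun* at 1.3002 ± 0.47 (unadjusted p = 0.022, adjusted p = 0.20, edgeR). On day 14 they ran from -0.32 to 0.07, and 0 were called, beside 0% of 15869 genes. With all libraries, in neither test did a member reach an unadjusted p under 0.05, and DESeq2 called 0 in both.

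Between day 14 and day 7 no member was called in any organ by edgeR or DESeq2, and 0% of 17547 genes were called in pancreas, 0% in liver and 0% in lung. *Jun* in liver was lower on day 14, with a log2 value of -0.51 ± 0.24 (unadjusted p = 0.043, adjusted p = 0.55, edgeR), and at 0.03 without the liver library with high fibroblast markers. The other values lay between -0.39 and 0.26.

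The other genes of the AP-1 pathway were counted from lists of dimer partners, upstream kinases and serum response factor (SRF) partners, and textbook target genes. Of 12 kinase and SRF partner genes, among them *Mapk8*, *Srf* and *Elk1*, 0 were called by edgeR in the 6 label comparisons, the mean of strata or the organ comparisons. In liver against pancreas 6 of them had an unadjusted p under 0.05, beside 53.1% of all genes, and in lung against pancreas 5, beside 54.4%.

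Among 9 dimer partners, 2 were called in each metastatic organ, *Batf2* and *Mafk*, both higher, near the share of all genes called (20.9% in liver and 21.8% in lung). *Batf2*, a BATF protein that pairs with JUN proteins, was 1.53 ± 0.25 and 2.19 ± 0.24 higher in liver and lung than in pancreas on the log2 scale, at low levels (medians of 2.82, 3.52 and 0.976 CPM in liver, lung and pancreas). *Mafk*, a small MAF protein without a transactivation domain, was 1.49 ± 0.17 and 1.25 ± 0.17 higher. *Batf2* was also called higher under the label Smad4 on, at 1.67 ± 0.42 in pancreas on day 14 (adjusted p = 0.036, edgeR) and 1.65 ± 0.19 in the mean of strata (adjusted p = 1.0e-06).

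AP-1 target genes went both ways. Of 22, 7 were called higher and 5 lower in lung than in pancreas, beside 21.8% of all genes in either direction, and 2 higher and 4 lower in liver, beside 20.9%. The receptor gene *Plaur* (1.41 ± 0.18 in liver and 1.16 ± 0.17 in lung) and the growth factor gene *Areg* (1.65 ± 0.33 and 1.33 ± 0.32) were called higher in both, while the protease gene *Mmp9* (-3.14 ± 0.42 and -2.62 ± 0.39) and the protease inhibitor gene *Timp1* (-1.84 ± 0.24 and -1.74 ± 0.23) were called lower in both. Between the labels, *Mmp9* in pancreas on day 7 had a log2 fold change of 4.06 ± 0.22 (adjusted p = 0.0033, edgeR), and in the mean of strata 1 target was called higher (*Mmp9*, 2.75 ± 0.33) and 4 lower (*Il11*, *Ereg*, *Mmp3* and *Timp1*, -1.19 to -1.46). *Mmp10*, which encodes a stromelysin, was called lower in pancreas on day 14 (-2.62 ± 0.38, adjusted p = 0.0069). In the difference of response between liver and lung on day 7, *Mmp10* (-5.46 ± 0.99), *Timp1* (-3.93 ± 0.61) and the immediate early gene *Klf2* (-3.84 ± 0.79) were called, with adjusted p-values of 0.037 to 0.046 in edgeR. Without the liver library with high fibroblast markers, none of these 3 was called, at -6.02 ± 0.98, -3.76 ± 0.68 and -1.70 ± 0.24 (adjusted p = 0.061 to 0.066). Of the list genes called in liver against pancreas, 9 of 9 were called without it, and in the mean of strata 5 of 6, all but *Mmp3* (-0.97 ± 0.42, adjusted p = 0.11).

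Between liver and lung, *Plau*, which encodes urokinase, was called higher in liver (1.38 ± 0.21), and *Mmp10* (adjusted p = 0.0096, edgeR), *Ptgs2* (-1.23 ± 0.40) and *Spp1* (-1.13 ± 0.20) were called lower. Of the 23 other immediate early genes, only *Dusp2* was called in liver against pancreas (1.08 ± 0.39), beside 20.9% of all genes. From the same list, only *Cebpb* was called in lung against pancreas (1.84 ± 0.35), beside 21.8% of all genes. Of the 13 heat shock genes, the HSP70 genes *Hspa1a* (-1.10 ± 0.17) and *Hspa1b* (-1.37 ± 0.21), near-identical copies between which reads can be split, were called lower in pancreas on day 14 under the label Smad4 on, and the co-chaperone gene *Dnajb1* was called higher in liver than in lung (1.17 ± 0.16). Of 7 genes of the integrated stress response, in which *Atf3* is known to act downstream of ATF4, 0 were called in any label or organ comparison. In pancreas on day 7, 3 of the 7 had a positive value. Lower under the label Smad4 on there were *Asns* (-0.98 ± 0.10, adjusted p = 0.011, edgeR), *Trib3* (-1.27 ± 0.24, adjusted p = 0.054) and *Chac1* (-1.72 ± 0.32, adjusted p = 0.0502). These 3 had an unadjusted p under 0.05, as had 23.1% of all genes.

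Within groups, 5 of the AP-1 genes varied together with other immediate early genes. The share of all genes that do so was not computed, so that this is not shown to be particular to AP-1 genes. For this, each library's level was taken as its deviation from the mean of its group, and Pearson's r and Spearman's rho were computed over the 35 libraries, with libraries permuted within groups 100000 times and p-values adjusted over 16 relations (8 members with 2 scores). With the immediate early score, r was 0.85 for *Jun* (rho = 0.83, permutation p = 6.0e-05, adjusted p = 3.2e-04) and 0.82 for *Fosb* (rho = 0.79, permutation p = 4.2e-04, adjusted p = 0.0017). It was 0.79 for *Fosl2* (rho = 0.77, permutation p = 5.2e-04, adjusted p = 0.0017). *Junb* was at 0.67 (rho = 0.70, permutation p = 0.0023, adjusted p = 0.0062) and *Jund* at 0.60 (rho = 0.60, permutation p = 0.017, adjusted p = 0.034). Without the 2 libraries farthest from the median score, r was 0.78 for *Jun*, 0.73 for *Fosb*, 0.69 for *Fosl2*, 0.68 for *Junb* and 0.62 for *Jund*.

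Among the 23 libraries without *mt-Co3* counts whose group kept at least 2, r was 0.81 for *Jun*, 0.71 for *Fosb*, 0.87 for *Fosl2* and 0.68 for *Jund* (permutation, adjusted p = 0.026, 0.0071, 0.0071 and 0.039), and 0.81 for *Junb* (adjusted p = 0.067). In pancreas (n = 10), liver (n = 11) and lung (n = 14) it was 0.69, 0.86 and 0.86 for *Jun*. The value in liver includes the library with high fibroblast markers and was not computed without it.

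*Fos*, the most abundant member, followed the score less closely. Its r was 0.43 over the 35 libraries (rho = 0.26, permutation p = 0.17, adjusted p = 0.27) and 0.08 without the 2 farthest libraries. It was 0.84 in liver and -0.21 in lung. The liver value includes the library with high fibroblast markers and was not computed without it. In that library the score was 8.20, against 7.34 in the other library of its group. *Fosl1* was at 0.46 (rho = 0.32, permutation p = 0.070, adjusted p = 0.12) and at -0.78 in pancreas against 0.68 in lung. *Atf3* was at 0.22 over all libraries (rho = 0.28, permutation p = 0.55, adjusted p = 0.59), 0.52 without the 2 farthest and 0.80 among the 23 libraries without *mt-Co3* counts (permutation, adjusted p = 0.039).

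**Figure D5:**
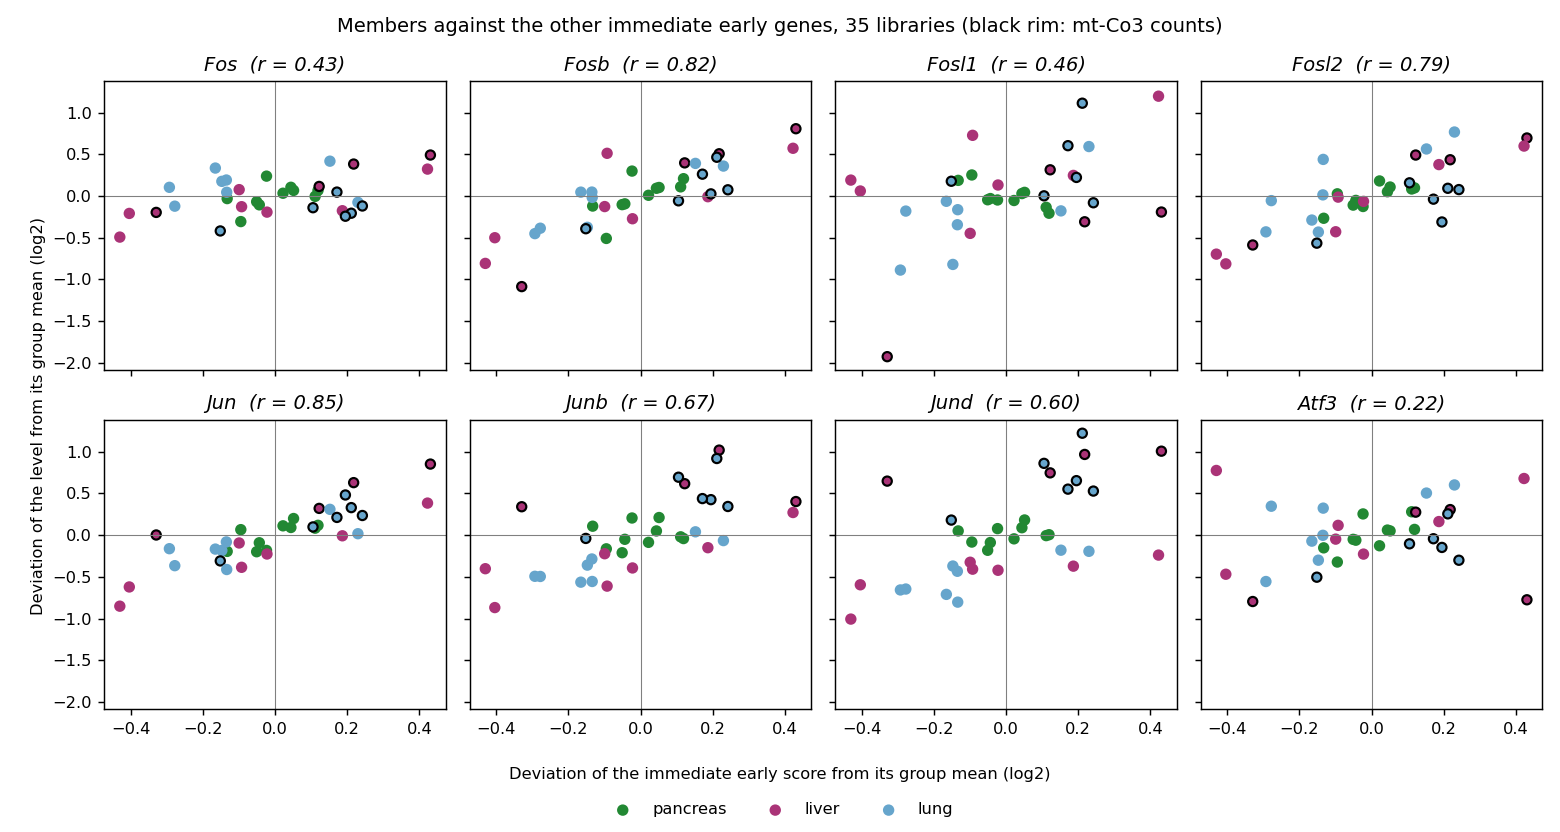
Deviation of each AP-1 gene's level from its group mean (log2) against that of the immediate early score, the mean log2 CPM of 23 other immediate early genes, in 35 libraries coloured by organ, with a black rim for libraries with *mt-Co3* counts. The points rise together for *Jun* (r = 0.85), *Fosb* (r = 0.82) and *Fosl2* (r = 0.79), rimmed points lie high for *Jund*, and *Atf3* (r = 0.22) shows no common slope over all libraries.

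With the mean log2 CPM of the 13 heat shock genes, r was 0.86 for *Jund* (rho = 0.85, permutation p = 3.0e-05, adjusted p = 3.2e-04), 0.76 for *Junb* (rho = 0.76, permutation p = 4.0e-05, adjusted p = 3.2e-04) and 0.54 for *Jun* (rho = 0.54, permutation p = 0.0095, adjusted p = 0.022). These relations did not hold within the libraries without *mt-Co3* counts, where r was 0.25, 0.21 and 0.34 (permutation, adjusted p = 0.50, 0.50 and 0.23). The score was 8.60 to 8.83 in the 4 liver libraries with such counts and 8.10 to 8.65 in the 7 without, and 8.32 to 8.92 and 7.67 to 8.09 in lung. Among those 23 libraries, *Fosl2* (r = 0.61, adjusted p = 0.029) and *Fosl1* (r = 0.60, adjusted p = 0.039) passed the permutation test with the heat shock score.

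Among the members themselves, the closest pair was *Junb* and *Jund* (r = 0.92 over the within-group deviations of 35 libraries), followed by *Jun* with *Junb* (0.78), *Jun* with *Jund* (0.77) and *Fosb* with *Fosl2* (0.77). *Fos* was closest to *Fosb* (0.62), and *Atf3* to *Fosl1* (0.52). The points share library, depth and *mt-Co3* status, and these values are descriptions.

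The 3 genes whose within-group deviations were most like those of each member included 3 from the list of other immediate early genes, *Ier2*, *Nr4a1* and *Egr2*. For *Junb* the closest of all genes was *Ier2* (r = 0.96), for *Fosl2* *Elmsan1* (0.91), *Nr4a1* (0.89) and *Sik1* (0.89), and for *Fosb* *Csrnp1* (0.85), *Elmsan1* (0.81) and *Egr2* (0.80). For *Fosl1* they were *Maff* (0.85), *Dusp5* (0.83) and *Dusp4* (0.83), of which both DUSP proteins dephosphorylate MAP kinases, and for *Atf3* *Ripk4* (0.89), *Klf10* (0.89) and *Hbegf* (0.88). *Fos* was most like *Kdm3b* (0.89), *Bcl9l* (0.87) and *Znfx1* (0.87), *Jun* like *Zfp574* (0.89), *Srebf1* (0.88) and *Dctn1* (0.87), and *Jund* like *Fbxw4*, *AC154176.1* and *Zc3h3* (0.96 each). Of the 50 genes most like *Fosb* and of those most like *Fosl2*, 5 each were on the list of 23 other immediate early genes, and of those most like *Fos* and *Atf3*, 0.

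*Fosl1* had the widest range over the 35 libraries, from 12.9 to 143 CPM. The highest and lowest libraries differed 7.52-fold for *Atf3* and 2.50-fold for *Fos*, the steadiest member. The standard deviation within groups was 0.28 on the log2 scale for *Fos*, 0.41 for *Jun*, 0.66 for *Fosl1* and 0.68 for *Jund*. For *Atf3* the group means varied more (0.67) than libraries within a group (0.46), and for *Jund* less (0.38 against 0.68).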

How the data were processed

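RNA was sequenced from 35 libraries of sorted tumor cells, made with a stranded poly(A) kit and 75-base reads. The authors trimmed reads with Trimmomatic 0.36, aligned them to GRCm38 with STAR 2.5.3a and counted them per gene with featureCounts 1.6.3, and the deposited values are whole-number counts, not normalized, with a transcript length per gene. FastQC 0.11.5 is also listed in the submitters' processing notes. The strand setting of the counting, and which transcript the length is of, are not given in the sources used here. Columns were joined to the labels by name, with 0 unmatched.

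Here edgeR 4.0.16 tested the genes that filterByExpr kept at a minimum count of 10 and a minimum total of 15, after TMM scaling (robust quasi-likelihood, R 4.3.3). DESeq2 1.42.0 was an alternative. A gene was called at an adjusted p under 0.05 and a fold change over 2. SE is the log2 fold change divided by the square root of F. Labels were compared within each organ and day, and organs, days and the mean label difference in 1 fit of the 12 groups. CPM used TMM factors and log2 values a pseudocount of 0.5. Both the edgeR fit and the permutation of correlations were tested on simulated data.

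The members, lists and tests were chosen with earlier results of these data known. All 8 members are named, with a fold change where they were called or had an unadjusted p under 0.05, and otherwise by ranges. List genes are named where called, with a few others short of a call in pancreas on day 7, and likeness is given for the 3 genes with the highest r. The alternatives were DESeq2, its size factors, no scaling, other filters, no fold threshold, covariates for *mt-Co3* and for the immediate early score, a replicate block, a single fit and leaving out each library. Leaving out the 10 *mt-Co3* libraries, and no scaling, were added after the data were seen. Mouse numbers were not shown to pair the samples. In lung on day 14 all 4 same-numbered pairs correlated at 0.47 to 0.59. There, replicates 3 and 4 of both labels are also the *mt-Co3* libraries. Differently numbered pairs that shared *mt-Co3* status correlated at 0.43 to 0.63, so that mouse number and *mt-Co3* status could not be told apart. Libraries are numbered by mouse, and p-values measure the spread between these libraries of 1 cell model. Floors of 3 counts cover counting error only. Some alleles of the cells and some genes of the lists are not reported here.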

Additional observations from a re-analysis of the deposited data

Results flagged for a closer look

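*Atf3* in the lung group labelled Smad4 off on day 14 had 1 library far from the others. Replicate 2 was at 2318 CPM and the other 3 were at 1672 to 1762 CPM, so that the gap took 0.840 of the group's range. Of 24 combinations of a member and a group of 4 libraries examined this way, 1 was picked out, and chance picks out about 1 in 20.

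In the pancreas, *Jun* and *Fosl2* lay on opposite sides on the 2 days. On day 7 both libraries labelled Smad4 on were above all 3 labelled off, and on day 14 all 3 labelled on were below both labelled off. The log2 ratios of the mean CPM of the labels differed by 0.91 for *Jun* and 0.74 for *Fosl2* (day 7 minus day 14). This difference was not tested.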

How the results depend on the processing

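Over all alternatives, the number of members called stayed within 1.5 times the reported one in 430 fits and moved further in 21. Of the single-gene values, 14 were weaker, 5 stronger and 7 reversed, and the others kept their direction and side of the threshold. In liver on day 7, where edgeR called 0, the count was 1 with DESeq2, with the immediate early score as a covariate and with a single fit of 12 groups (all *Atf3*) and 1 in the 3 libraries without *mt-Co3* counts (*Jun*, with only 1 library labelled off and so no spread in that arm), and leaving out 1 library gave 0 to 1. With no fold threshold the counts were 1 in pancreas on day 14, 1 in the mean of strata, 4 in liver against pancreas and 6 in lung against pancreas. In lung against pancreas the count was 1 with a covariate for *mt-Co3* counts, 1 without those libraries, and 1 with the immediate early score (*Jun*, with *Fosl1* and *Atf3* under 2-fold), and leaving out 1 library gave 0 to 2, with 1 to 2 in liver against pancreas. With that score as a covariate, the pancreas values on day 7 reversed for *Fos* (-0.068), *Fosb* (-0.44), *Fosl2* (-0.12), *Junb* (-0.068), *Jund* (-0.049) and *Atf3* (-0.20), and *Fosl1*, at -0.30 otherwise, was at 0.59. *Jun* in liver, day 14 against day 7, ranged from -0.80 to 0.026 over single libraries left out, and reversed without replicate 2 labelled Smad4 off on day 7. The cause was not tested. The replicate block changed 0 calls of members, but took the mean label difference of *Atf3* from an adjusted p of 0.0056 to 0.076 (0.59 to 0.57, edgeR). That block kept only libraries whose number occurs under both labels, and the numbers were not shown to pair the samples. Without scaling beyond library totals the median of all genes was 0.11 in pancreas on day 14 and 0.18 in the response difference of day 7. Groups of 2 to 4 libraries limit the precision, and each member had over 12 CPM in all libraries.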
